A study of Homo sapiens and Mus musculus with 6 samples.

Results

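The promoters of 9 developmental forkhead genes were followed in Promoter Capture Hi-C data: Foxq1, Foxf2 and Foxc1, which lie together on mouse chromosome 13; Foxf1a, Foxc2 and Foxl1, which lie together on chromosome 8; and Foxa1, Foxa2 and Foxd3, which lie apart from them on chromosomes 12, 2 and 4. Every interaction in the mouse embryonic stem cell (mESC) list was kept that named one of these genes at the bait or at the other end, and the same symbols, ignoring case, were looked up in GM12878. In mESCs 7 of the 9 genes were named on a bait with at least 1 listed call, of 16133 gene symbols so named. In GM12878 the number was 5, of 20461 symbols.

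Promoter Capture Hi-C ligates HindIII fragments that lie close together in fixed nuclei, then enriches for fragments that hold promoters (baits), so that each read pair joins a bait to another fragment (the other end). The mESCs were of the J1 line, strain 129S4/SvJae, expanded on feeder fibroblasts that were depleted before fixation, with 2 capture replicates and 1 uncaptured Hi-C library. GM12878, an established human lymphoblastoid line derived from B lymphocytes, had 3 capture replicates. Neither cell type was treated, and RNA was not measured in these data, so the labelled cell types could not be checked against marker genes. The CHiCAGO caller scored each bait with each other end once per cell type from all replicates together, and those scoring at least 5 were listed. A pair of 2 baits can thus be listed from each end with its own score. No replicate spread can be given for any value below, and the 95% Wilson intervals cover counting error only. Cell type, species and capture design differ together between the mESC and GM12878 lists and cannot be told apart.

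Forkhead genes encode transcription factors that bind DNA through a winged-helix domain, and most are used in particular tissues of the embryo. Foxa1 and Foxa2 are pioneer factors that open chromatin in the endoderm, Foxc1 and Foxc2 act in mesenchyme, the eye and vessels, Foxf1a, Foxf2 and Foxl1 act in the mesenchyme of gut and lung, Foxq1 is known for hair differentiation, and Foxd3 for the neural crest and pluripotent cells. In embryonic stem cells, developmental genes of this kind are known as targets of Polycomb repression at CpG-rich promoters.

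The unit of the assay is the HindIII fragment, and the strongest contact of the set joined the Foxa1 bait, chr12:58641063-58648548 (mm9), to the Pax9 bait, chr12:57792706-57796357. The first and last 40 bases of both are shown on the plus strand, because capture probes target the ends of a fragment. The capitals mark what HindIII, whose site is AAGCTT, leaves at the start of a fragment.

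Foxa1 bait, low end, chr12:58641063-58641102: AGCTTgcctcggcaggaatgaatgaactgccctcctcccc
Foxa1 bait, high end, chr12:58648509-58648548: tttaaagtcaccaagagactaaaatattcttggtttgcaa
Pax9 bait, low end, chr12:57792706-57792745: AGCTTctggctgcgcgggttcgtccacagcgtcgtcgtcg
Pax9 bait, high end, chr12:57796318-57796357: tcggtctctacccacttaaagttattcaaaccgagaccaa

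All 70 distinct mouse fragments in calls with these genes had AAGCTT, which reads the same on both strands, across both ends in mm9, and so did all 30 human fragments in hg19. The shortest fragment contacted in the chromosome 13 cluster was an unbaited piece of the Foxf2 intron, chr13:31721473-31721710, called from Foxc1. It is shown whole on the plus strand with the cut end in capitals.

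Foxf2 intron fragment, 238 bases: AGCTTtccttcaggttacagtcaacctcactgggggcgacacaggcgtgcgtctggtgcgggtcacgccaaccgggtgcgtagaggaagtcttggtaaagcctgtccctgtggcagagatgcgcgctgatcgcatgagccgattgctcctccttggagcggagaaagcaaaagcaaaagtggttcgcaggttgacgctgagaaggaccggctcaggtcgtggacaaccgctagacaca

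This piece of Foxf2 held 71.4 CpG per kb, a density that 0.096% of the 35407 other unbaited fragments listed in mESCs reached. The Foxl1 fragment described below held 67.3 CpG per kb, which 0.141% of them reached. Over the 47 unbaited fragments called from the forkhead baits the median was 16.2 CpG per kb, against 10.6 over the other fragments. The medians by gene ran from 10.3 for Foxc1, over 7 fragments, to 30.7 for Foxf2, over only 2. The fragments contacted by the forkhead baits were thus richer in CpG at the median, though those of Foxc1 were not.

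In windows at their annotated starts, the promoters themselves were unlike one another. In the window from 250 bases before to 50 bases after the annotated start, the 22367 other protein-coding genes had a median of 11 CpG. Foxf1a had 37, Foxq1 35, Foxc1 32, Foxf2 27, and Foxa1 and Foxd3 25 each, while Foxa2 and Foxl1 had 12 and Foxc2 had 10. These counts depend on where the start is annotated, which was not checked by other means. The fragment that holds the annotated Foxl1 gene, for instance, had 67.3 CpG per kb. As many as in Foxf1a were found in 6.57% of the other promoters, and as many as in Foxc2 in 53.9%. Foxq1 and Foxa2, from either side of this range, are shown as the 250 bases before the annotated start, read along the coding strand, with CpG in capitals (26 in Foxq1 and 6 in Foxa2).

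Foxq1, chr13:31649789-31650038, plus strand: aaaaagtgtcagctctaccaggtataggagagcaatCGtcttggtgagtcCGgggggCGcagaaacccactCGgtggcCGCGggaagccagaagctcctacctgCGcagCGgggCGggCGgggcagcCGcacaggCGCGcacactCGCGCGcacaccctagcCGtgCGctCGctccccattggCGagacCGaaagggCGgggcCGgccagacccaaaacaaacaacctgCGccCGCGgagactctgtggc
Foxa2, chr2:147872706-147872955, minus strand: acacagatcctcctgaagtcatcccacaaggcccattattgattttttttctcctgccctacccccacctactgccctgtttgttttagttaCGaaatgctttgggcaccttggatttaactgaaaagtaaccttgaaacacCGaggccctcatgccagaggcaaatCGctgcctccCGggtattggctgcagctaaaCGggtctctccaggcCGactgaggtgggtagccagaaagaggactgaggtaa

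The forkhead genes took part in 90 of the 101841 listed mESC calls, 78 of them from their own baits, and the 90 calls joined 75 distinct fragment pairs. Foxa1 had 20 calls from its bait, Foxc2 15, Foxa2 13, Foxc1 9, Foxq1 8, Foxf2 7 and Foxf1a 6, against a median of 3 over the 16265 listed baits. Foxa1 had more calls than 94.0% of listed baits and Foxf1a, the lowest, more than 65.8%. Foxl1 and Foxd3 were named on no listed bait, and for Foxd3 no fragment was named at either end of any call.

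These calls were long. Their median distance between fragment midpoints was 682 kb, against 139 kb over all cis calls, and 49 of 90 (54.4%, interval 44.2 to 64.3%) spanned at least 500 kb, where the background over all calls was 9.00%. Most of that length came from Foxa1 and Foxa2, where 19 of 25 and 17 of 17 calls spanned at least 500 kb. Without these genes the median fell to 263 kb. With each fragment pair counted once, over all the genes, it was 511 kb. Of the 78 calls from forkhead baits, 56 lay in 18 runs of neighbouring fragments, so the 90 calls were not 90 separate observations. None of the 90 calls joined different chromosomes, which allows a share of up to 3.33%, and the share over all calls was 0.569%. The median read count was 11.5 against 13 over all calls, and the median score 8.10 against 6.62.

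Both ends were baits in 37 of the 90 calls (41.1%, interval 31.5 to 51.4%), and the background over all calls, 36.3%, lay inside that interval. The forkhead bait-to-bait pairs were, however, often called from each end in turn: 15 of 22 pairs (68.2%, interval 47.3 to 83.6%), against 26.2% over all bait-to-bait pairs in mESCs. A pair has the same reads whichever bait is taken first, so calls from both ends are 2 scores for 1 set of reads and not 2 measurements.

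**Figure D1:**
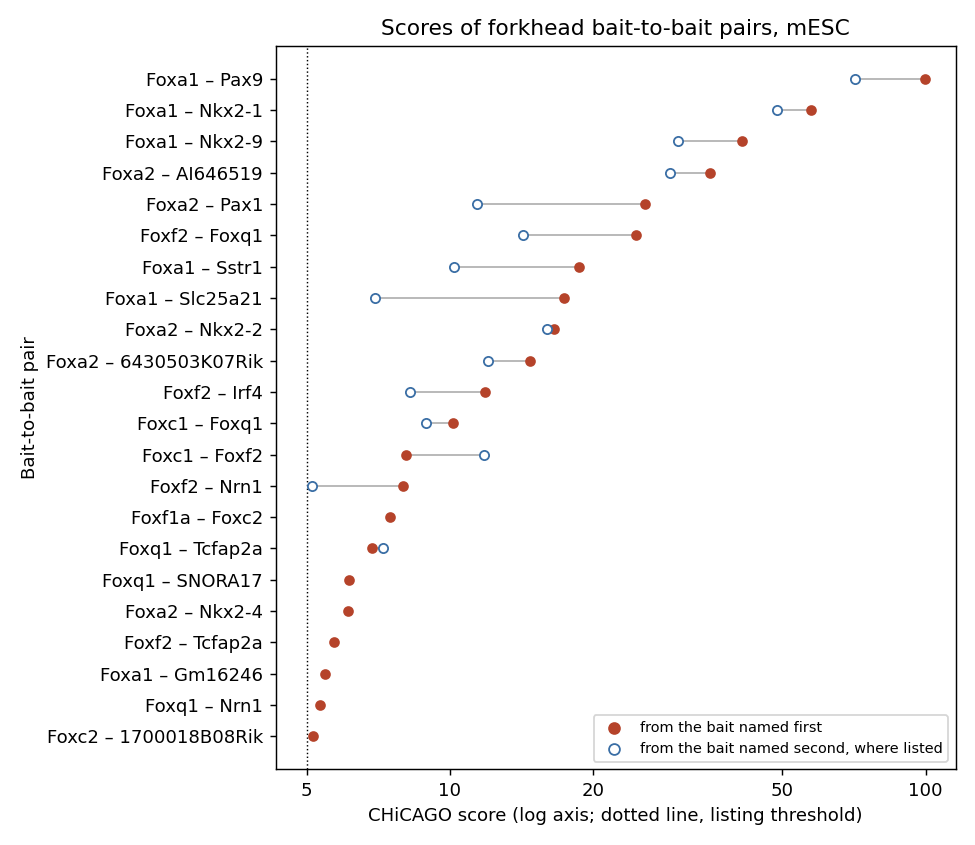
CHiCAGO scores (horizontal log axis) of the 22 bait-to-bait pairs that hold a forkhead promoter in mESCs; filled points are scores from the bait named first, open points from the bait named second where that call was listed, and the dotted line is the listing threshold of 5. Foxa1 with Pax9 stands at the top with scores of 99.54 and 71.12, and 7 pairs have a filled point only.

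Foxa1 reached across to a block of homeobox and paired-box genes. The highest score of all 90 calls, 99.54, joined Foxa1 to Pax9, a gene needed for teeth and the pharyngeal pouches, over 850 kb with 47 reads. Of the 518 other bait-to-bait calls within 10% of that distance, 2 had as many reads and 0 had as high a score, while their median was 7 reads. From the Pax9 bait the same pair scored 71.12.

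The next strongest Foxa1 partners were Nkx2-1, a regulator of thyroid and lung, with 27 reads and a score of 57.43 at 1007 kb, and Nkx2-9, a homeobox gene of the ventral neural tube, with 21 reads and a score of 41.08 at 931 kb. For Nkx2-1, 14 of 367 other bait-to-bait calls of like distance had as many reads, and for Nkx2-9, 16 of 408. Both were also called from their own baits, with scores of 48.66 and 30.23. The order of these partners by reads was therefore Pax9, Nkx2-1, Nkx2-9, and did not follow their distance.

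Fragments beside each of these promoters were called as well. Around Nkx2-1, 7 neighbouring fragments with 5 to 27 reads each made a run of 13.0 kb; around Pax9, 5 fragments with 6 to 47 reads made a run of 21.9 kb; and at Nkx2-9 there were 2 fragments, with 5 and 21 reads. In every run the baited promoter fragment had the most reads. Reads over a baited other end include those captured from that end, so a baited and an unbaited fragment are not on the same footing.

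The other baited partners of Foxa1 were Slc25a21, a mitochondrial carrier gene, with 16 reads at 345 kb; Sstr1, a somatostatin receptor gene, with 13 reads at 670 kb; and the predicted gene Gm16246, with 12 reads at 93.3 kb. Of these, Sstr1 lay upstream of Foxa1 and the others lay downstream. A further 2 unbaited fragments in Mipol1, the gene next to Foxa1, had 8 and 6 reads. The nearest call, to an unbaited fragment 5.11 kb upstream, had 53 reads but a score of only 5.48. Downstream calls made up 18 of the 20 from Foxa1.

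Foxa2 showed the same kind of pattern with the related genes on chromosome 2, as Pax1, Nkx2-2 and Nkx2-4 are relatives of Pax9, Nkx2-9 and Nkx2-1. Its highest score, 35.18, was with the AI646519 bait, 23 reads at 682 kb, a fragment that holds an annotated start of Pax1, a gene of the developing vertebral column. The bait named for Pax1 itself, the neighbouring fragment but one, had 19 reads and a score of 25.70 at 687 kb. Between them an unbaited fragment of 157 bases was also called, with 6 reads and a score of 6.91.

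At Nkx2-2, a gene of pancreatic and ventral neural development, Foxa2 contacted 9 neighbouring fragments over 22.9 kb. The highest score there, 29.52 with 16 reads, fell on an unbaited fragment that holds a start of Nkx2-2, and the bait named for Nkx2-2 had 12 reads and a score of 16.60 at 852 kb. The 6430503K07Rik bait, inside the same locus, had 11 reads. Nkx2-4, a homeobox gene of the thyroid and hypothalamus, had 6 reads and a score of 6.12 at 962 kb and was called in this direction only.

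All 13 calls from Foxa2 lay downstream, between 682 and 962 kb away, and none lay nearer. Foxa1 had the same empty middle in part, with no call between 345 and 846 kb downstream. Called back from the AI646519, Pax1, Nkx2-2 and 6430503K07Rik baits, the Foxa2 bait had scores of 11.39 to 29.01.

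**Figure D2:**
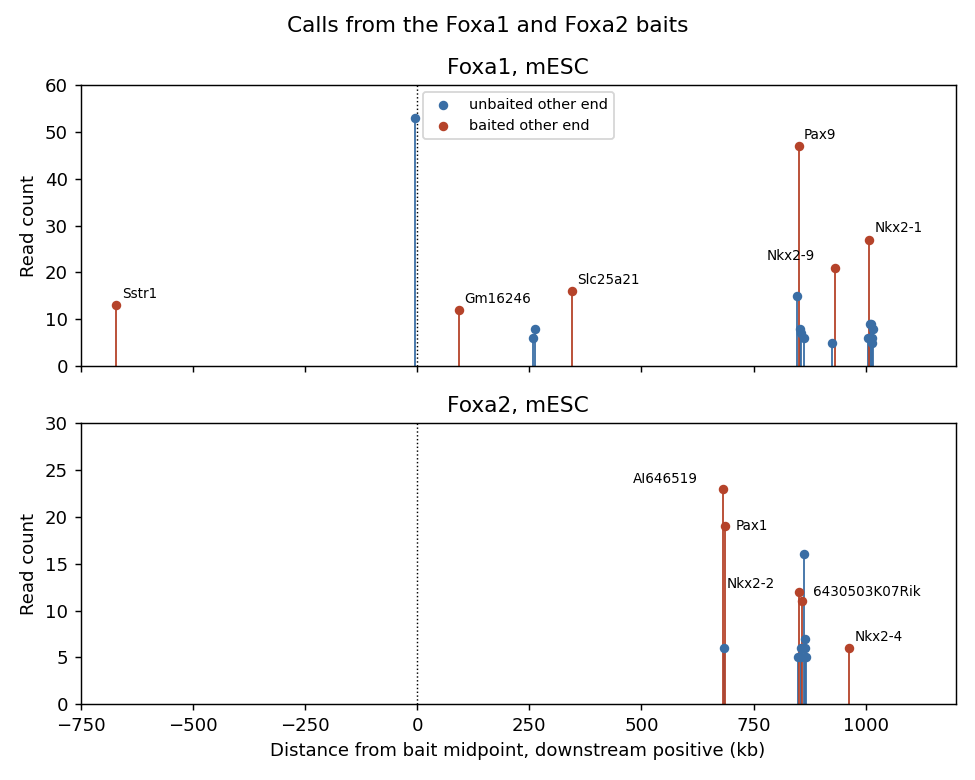
Read count of each call from the Foxa1 bait (upper panel) and the Foxa2 bait (lower panel) in mESCs against the distance from the bait midpoint in kb, positive in the direction of transcription; colours separate baited from unbaited other ends and baited ones are named. The Foxa1 calls gather near 850, 931 and 1007 kb with Pax9 the tallest of those at 47 reads, and all Foxa2 calls lie between 682 and 962 kb.

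The contacts were also set beside the mESC Hi-C library sequenced without capture, in 25-kb bins tested by HOMER against an expected read number. It represents the material before capture and is not independent of the capture calls. The bin pair over Foxa1 and Pax9 held 45 reads where 1.62 were expected, a ratio of 27.8, and its false discovery rate (FDR) was listed as 0. The pair over Foxa1 and Nkx2-1 held 46 reads where 2.79 were expected, and that over Foxa1 and Nkx2-9 held 16 where 1.46 were expected. These were the largest ratios over any forkhead call within the listed bin borders.

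The Foxa2 contacts were not within any listed bin pair when the borders were taken as listed (0 of 17 calls), which HOMER shifts from the nominal ones. The shifted bin ended at 147871019, and the midpoint of the Foxa2 bait lies beyond it, though the bait fragment reaches into the bin. With the nominal borders 16 of the 17 Foxa2 calls lay within a bin pair: the pair over Nkx2-2 held 20 reads where 1.80 were expected, a ratio of 11.1, and the pair over Pax1 held 13 where 2.22 were expected, with an FDR of 0.0446. The Foxa2 overlap thus turned on a border convention.

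Over all the forkhead calls under 1 Mb, 23 of 73 (31.5%, interval 22.0 to 42.9%) lay within a Hi-C bin pair at FDR under 0.05 by listed borders, with a background of 11.6% over all calls, and 39 of 73 did by nominal borders, with a background of 11.5%. By distance, 14 of 41 calls under 500 kb (34.1%) and 9 of 32 calls from 500 kb to 1 Mb (28.1%) lay within one, where the backgrounds were 11.5% and 13.5%. The 23 calls fell in 7 bin pairs, so they were not 23 separate observations. Among these, the pair with 2 Foxc2 calls joins bins chr8:123630755-123655755 and chr8:123641363-123666363, which overlap and both hold the Foxl1 fragment. It cannot show a contact of Foxc2 with Foxl1. Of the 17 calls of at least 1 Mb (background of such calls, 3.37% of all), 13 lay within a 1-Mb bin pair at the same FDR (76.5%, interval 52.7 to 90.4%), and the 59.4% over all such calls lay inside that interval. These 13 calls fell in 3 bin pairs, 8 of them in the pair over Foxa1 and Nkx2-1, which held 3355 reads where 2436 were expected. The ratio was 1.38. Those 8 calls spanned 1005 to 1016 kb, hardly more than a 1-Mb bin, so the pair does not single out this contact.

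**Figure D3:**
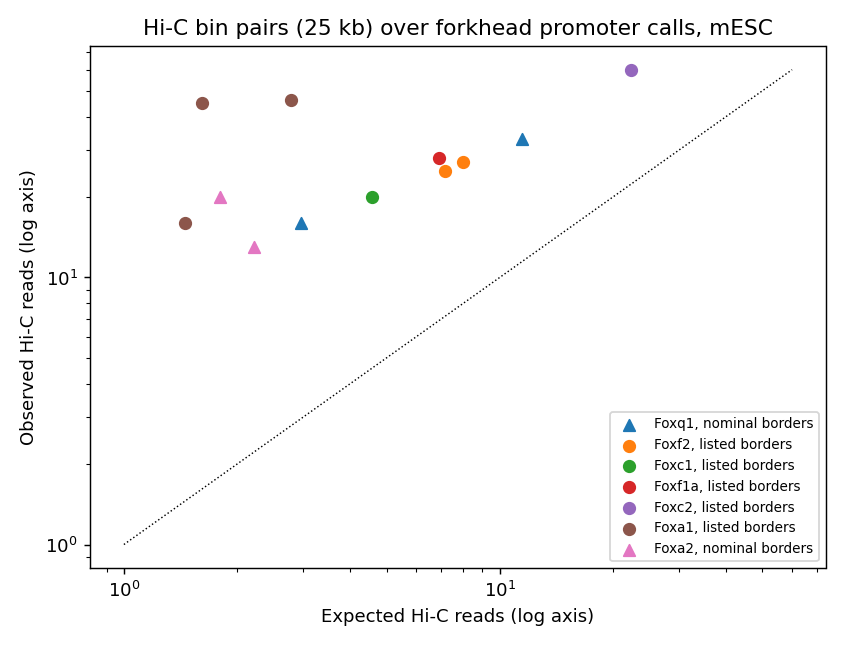
Observed against expected Hi-C reads (both log axes) for the 12 bin pairs of 25 kb with FDR under 0.05 that hold a call of a forkhead gene in mESCs; circles are pairs that hold the call by their listed borders (8), triangles by their nominal borders only (4), colours give the gene and the dotted line marks equality. All 12 lie above the line, and Foxa1 with Pax9 lies furthest from it at 45 against 1.62 reads. The pair drawn for Foxc2 joins overlapping bins.

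In the chromosome 13 cluster every forkhead promoter was called with both of the others, and from both ends. Foxq1 and Foxf2, 62.2 kb apart, shared 48 reads, with scores of 14.23 from Foxq1 and 24.67 from Foxf2. Foxq1 and Foxc1, 245 kb apart, shared 18 reads, with scores of 8.92 and 10.18. Foxf2 and Foxc1, 183 kb apart, shared 17 reads, with scores of 11.82 and 8.08. The read count at 245 kb was therefore no lower than that at 183 kb.

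Read counts alone did not set these pairs far from others of their length. For Foxq1 with Foxf2, 73 of 1667 other bait-to-bait calls of like distance had as many reads, and for Foxf2 with Foxc1, 589 of 2804 had. In Hi-C, the bin pair over Foxq1 and Foxf2 held 27 reads against 7.97 expected (FDR 0.00539), and that over Foxf2 and Foxc1 held 20 against 4.58 (FDR 0.00514). Foxq1 and Foxc1 lay in no listed bin pair.

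The unbaited 3′ parts of Foxc1 and Foxf2 were called as well, with higher scores than the baits of the same genes in 3 of 4 cases. The fragment with the end of Foxc1, chr13:31901289-31904106, had 22 reads and a score of 17.05 from Foxq1, and 19 reads and a score of 18.76 from Foxf2. The fragment with the last exon of Foxf2, chr13:31721711-31723614, had 28 reads and a score of 10.77 from Foxq1, below the 14.23 of the Foxf2 bait, and 21 reads and a score of 15.48 from Foxc1. The Foxf2 intron piece printed above had 17 reads and a score of 11.21 from Foxc1. CHiCAGO expects more background reads between 2 baits than between a bait and an unbaited fragment, which lowers a bait-to-bait score at equal reads.

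Upstream of Foxq1 the fragment with an exon of A530084C06Rik was called from Foxf2 (12 reads) and from Foxc1 (10 reads). With the fragments above, 11 of the 67 distinct other ends called from the forkhead baits in mESCs were called from more than 1 of them, 8 on chromosome 13 and 3 on chromosome 8. The 11 include the Foxq1, Foxf2 and Foxc1 baits, which are shared once these promoters all call one another. No share over other neighbouring baits is set beside this count.

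**Figure D4:**
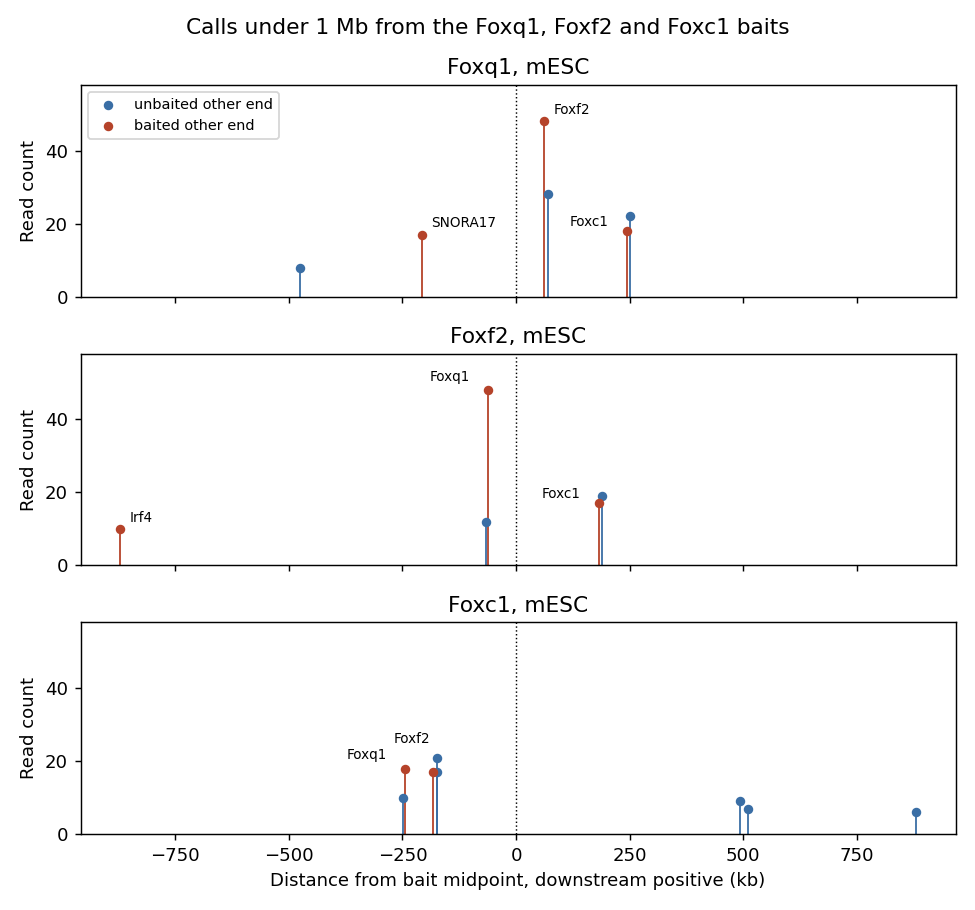
Read count of each call under 1 Mb from the Foxq1, Foxf2 and Foxc1 baits in mESCs against the distance from the bait midpoint in kb, positive in the direction of transcription; colours separate baited (named) from unbaited other ends. Foxq1 with Foxf2 is the tallest at 48 reads, and the calls beyond the cluster have at most 17 reads.

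Outside the cluster, Foxf2 contacted Irf4, a transcription factor gene of lymphoid cells, over 871 kb with 10 reads and scores of 11.87 and 8.26 from either end. Foxq1 contacted a small nucleolar RNA annotation, SNORA17, 206 kb upstream with 17 reads. Foxc1 contacted 2 fragments in introns of Gmds, a fucose synthesis gene, at 494 kb (9 reads, score 8.12) and 511 kb (7 reads, score 5.58), and a fragment 880 kb away near Mylk4 (6 reads).

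The longest calls of the cluster reached genes far along the same chromosome. Nrn1, which encodes neuritin, was contacted from Foxq1 at 5174 kb and from Foxf2 at 5112 kb, with 5 reads each, and from Foxc1 at 4924 kb through an intronic fragment with 4 reads. Tcfap2a, the gene of the transcription factor AP-2 alpha of the neural crest, was contacted from Foxq1 at 9176 kb with 5 reads and from Foxf2 at 9114 kb with 4. The Nrn1 bait had 20 calls of at least 1 Mb in cis of 31, and the Tcfap2a bait 14 of 16, so long calls were usual for these baits.

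These megabase calls rested on few reads. Their scores ran from 5.14 to 7.96, and among the other bait-to-bait calls of like distance the median was 5 reads as well. In Hi-C the 1-Mb bin pair over Tcfap2a and the cluster held 248 reads where 163 were expected. The 4 calls that joined the cluster to Nrn1 lay in no listed bin pair, and 3 of the 7 megabase calls of the cluster, all with Tcfap2a, lay in one.

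In the chromosome 8 cluster the median distance, 265 kb, was close to the 251 kb of the chromosome 13 cluster, and fewer calls were between baits, 2 of 21 (9.52%, interval 2.65 to 28.9%), against 15 of 27 (55.6%, interval 37.3 to 72.4%) on chromosome 13. The background over all calls was 36.3%. Pairs called from both ends count in each direction, and the 27 calls joined 21 distinct pairs, as did the 21 calls on chromosome 8. Foxf1a and Foxc2, 30.1 kb apart, shared 43 reads with a score of 7.48 from Foxf1a, and the call from Foxc2 was not listed. Foxl1 is annotated as a pseudogene in the mouse gene set used here and had no named bait, so calls to it count as unbaited.

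The Foxl1 fragment, chr8:123651215-123653070, was the other end of 3 calls. It had 36 reads and a score of 14.84 from Foxf1a at 42.1 kb, where 142 of 1871 other unbaited calls of like distance had as many reads. It had 67 reads and a score of 6.55 from Foxc2 at 12.0 kb. From Nfix, a nuclear factor I gene 36328 kb away, it had 3 reads and a score of 5.19.

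The highest score of the cluster, 23.94 with 68 reads, joined Foxc2 to chr8:123595637-123600507, the fragment that ends beside the Foxf1a bait and holds an exon of the long non-coding RNA gene 1110050K14Rik. Of 1857 other unbaited calls of like distance, 16 had as many reads. The Foxf1a bait next to it was therefore not listed from Foxc2 while its neighbour was. In Hi-C the bin pair over this contact held 34 reads against 13.9 expected (FDR 0.0982), and that over Foxf1a and Foxc2 held 34 against 17.7 (FDR listed as 1), so neither passed. The bin pair over Foxf1a and the fragments around Foxl1 held 28 reads against 6.90 expected (FDR 0.000107). Its bin around Foxl1, chr8:123640223-123665223, overlaps the Foxc2 bait, chr8:123636083-123644217, whose midpoint lies just before that bin. The pair thus does not separate a contact with Foxl1 from one with Foxc2.

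Foxf1a and Foxc2 also shared chr8:123345732-123352299, an intergenic fragment 65.1 kb from Irf8, a transcription factor gene of myeloid cells, with 9 and 12 reads. Foxc2 then called 9 fragments 198 to 426 kb downstream, with 9 to 13 reads each, the furthest being the 1700018B08Rik bait. Of these the highest score, 9.90, was at 399 kb. The Mthfsd bait, which ends where the Foxc2 bait begins, called 2 of the same fragments, with 7 and 10 reads.

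The longest calls of the whole set joined Foxc2 to 2 neighbouring fragments of Nfix, at 36345 and 36339 kb, with 4 reads and a score of 7.90 each. The 1-Mb Hi-C bin pair over them held 361 reads where 101 were expected, and its FDR was listed as 0. For each fragment, 14 of 18 other unbaited calls of like distance had as many reads and 9 had as high a score. The Nfix bait had 33 calls, 4 of them of at least 1 Mb in cis. Nfix was thus listed with the cluster from the Foxc2 bait and, from its own bait with 3 reads, with the Foxl1 fragment.

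**Figure D5:**
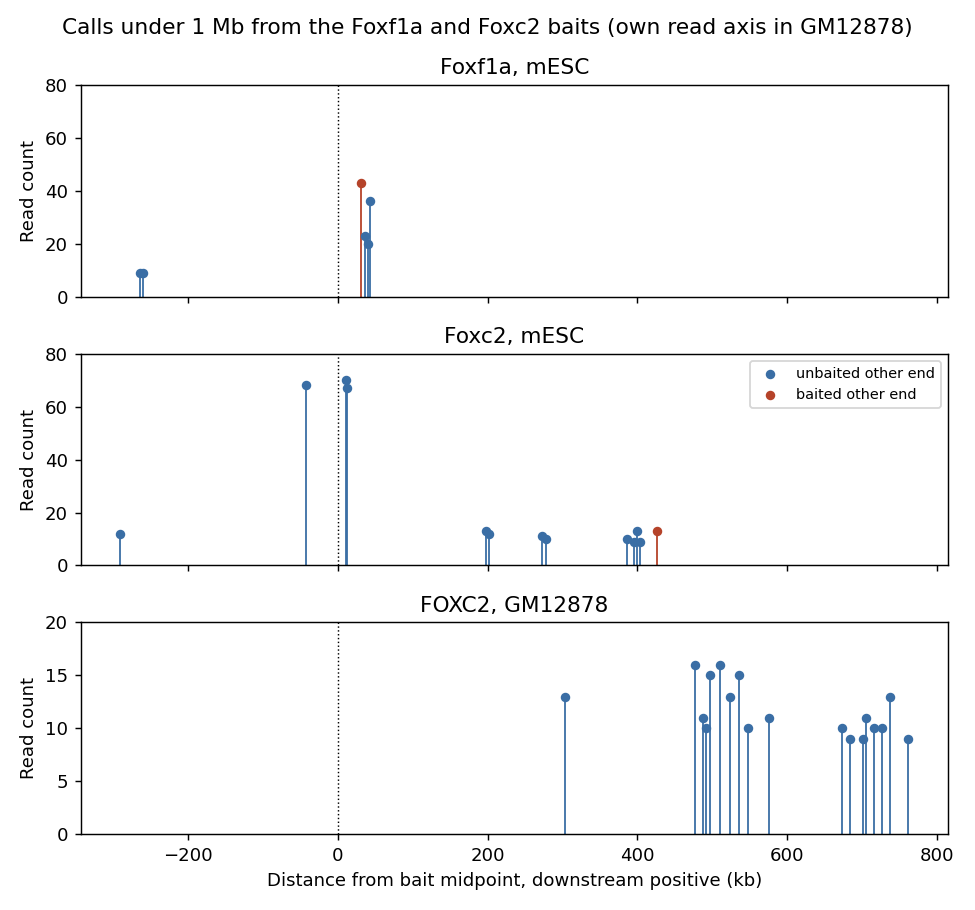
Read count of each call under 1 Mb from the Foxf1a and Foxc2 baits in mESCs and the FOXC2 bait in GM12878 against the distance from the bait midpoint in kb, positive in the direction of transcription; the GM12878 panel has its own read axis and colours separate baited from unbaited other ends. The mouse Foxc2 calls lie on both sides of the bait, and the 18 GM12878 calls lie between 304 and 762 kb downstream.

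The partners were sorted by a list of developmental regulators, mostly homeobox, paired-box, T-box, Sox and forkhead genes. Of the 16 baited fragments called with the forkhead baits that held no forkhead gene of the set, 6 (37.5%, interval 18.5 to 61.4%) were on the list, with a background of 1.55% over all 14371 baited fragments in bait-to-bait calls. All 6 were partners of Foxa1 or Foxa2, and of the 5 partners of the other genes 0 were listed. Tcfap2a, under its older symbol, was not on the list, and with it the count is 7 of 16. The list goes by symbol, so the AI646519 bait, with a start of Pax1, was counted as off it. So was the 6430503K07Rik bait, inside the Nkx2-2 locus.

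Nearness was considered by taking every listed bait within 1.1 Mb of a forkhead bait, a window chosen after the calls were seen. All 10 pairs with a developmental regulator, the forkhead pairs among them, were called, and 7 of 67 pairs with another gene were (10.4%, interval 5.15 to 20.0%), where the background over all pairs of listed baits at that distance was 10.9%. The 7 include 2 of Foxa2, with the AI646519 and 6430503K07Rik baits at Pax1 and Nkx2-2, whose symbols are not on the list. Within 1 Mb the counts were 9 of 9 and 7 of 62, and within 2 Mb 10 of 10 and 7 of 171. This was not particular to the forkhead promoters: among other developmental pairs within 1.1 Mb, Hox clusters included, 152 of 175 were called.

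Against the rest of the forkhead family in mESCs the set was not set apart by its number of calls. The 7 genes had a median of 9 calls from the bait, range 6 to 20, 18 other developmental forkhead genes had 7.5, range 1 to 62, and 9 more widely used ones (Foxj2, Foxk1, Foxk2, Foxn2, Foxn3, Foxo1, Foxo3, Foxo4 and Foxp4) had 6, range 2 to 38. Their baited partners were developmental regulators in 13 of 25, 13 of 61 and 0 of 14 cases, counting forkhead partners. In the set, those of Foxq1, Foxf2, Foxc1 and Foxf1a (2, 2, 2 and 1) were all other genes of the set. The set was chosen to hold clusters, so these shares are not on the same footing. The rest of the 13 were partners of Foxa1 and Foxa2, 3 each.

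In GM12878 the same symbols, in capitals, took part in 26 of 92929 calls. FOXC2 had 18, FOXF2 4, FOXA2 2, and FOXQ1 and FOXC1 1 each, while FOXL1, FOXA1 and FOXD3 were named on no listed bait. FOXF1, the human counterpart of Foxf1a under a different symbol, had none either. Whether these promoters were captured cannot be told from the list. The median over the 15389 listed baits was 3 calls.

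No GM12878 call joined forkhead promoters to one another, and both ends were baits in 2 of 26 calls (7.69%, interval 2.14 to 24.1%), with a background of 29.4%. FOXC2 alone gave 18 of the 26 calls, 0 of them between baits, so the low share was mostly that of 1 bait. Of the 26 calls, 14 lay in 4 runs of neighbouring fragments, so they were not 26 separate observations. The calls were again long, with a median of 542 kb against 174 kb over all cis calls, and 16 of 26 (61.5%, interval 42.5 to 77.6%) spanned at least 500 kb, where the background was 8.33%. All 16 came from FOXC2 and FOXF2.

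The FOXC2 calls all lay downstream, 304 to 762 kb away, with 9 to 16 reads each and scores of 5.10 to 11.80. Apart from the nearest, they fell in and around LINC02181, C16orf95 and the edge of FBXO31, in stretches of adjoining fragments, and the highest score, 11.80 with 16 reads, was at chr16:87096539-87118783 (hg19). The mouse Foxc2 calls beyond 100 kb downstream were nearer, 198 to 426 kb, and the coordinates of the genomes were not aligned to each other here.

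FOXC1 had a single call, to an intron of GMDS 492 kb downstream with 6 reads and a score of 6.20, and the mouse Foxc1 calls at 494 and 511 kb downstream lay in introns of Gmds as well. FOXQ1 and FOXF2 shared their only baited partner, the AL033381.1 fragment chr6:1076701-1081594, with 12 and 16 reads. The other 3 FOXF2 calls were adjoining fragments 586 to 592 kb upstream, with 7 to 9 reads. FOXA2 had 2 calls, with 14 and 13 reads, at 253 and 232 kb downstream, where mouse Foxa2 had none.

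The human counterparts of the mouse partners were in part listed baits themselves. NKX2-1 had 3 calls, PAX1 2 and NKX2-4 2, none with a forkhead gene of the set, while PAX9, NKX2-2 and NKX2-8, the counterpart of mouse Nkx2-9, had 0 listed calls from a bait and may not have been captured. IRF4 and IRF8, which are lymphoid and myeloid regulators, had 45 and 15 calls in GM12878, and none was with a forkhead promoter.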

How the data were processed

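Reads were aligned by the authors with Bowtie 1.1.0 (per the labels, to mm9 and hg19), filtered, and scored with CHiCAGO over all replicates jointly (2 in mESC, 3 in GM12878). The deposited lists give, per fragment pair, a score (a soft-thresholded −log weighted p-value, listed from 5) and a read count that the authors averaged over replicates with size factors and rounded, used here as a score rather than raw counts; per-replicate counts and library depths were not used here. The deposited Hi-C tables, made by the authors with HOMER 4.7 from 1 library, give counts of reads per bin pair (25 kb under 1 Mb, and 1 Mb), an expected read signal and a p-value adjusted as FDR.

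Calls were read with Python 3.11.15, and gene symbols were stripped of transcript suffixes. Distances join fragment midpoints, and like distance means within 10%. A run is a set of called fragments of 1 bait with gaps under 1 kb. A call lay within a Hi-C bin pair where both midpoints fell in its bins. Genes, starts and sequence came from mm9 with GENCODE vM1 and hg19 with GENCODE v44lift37. Wilson 95% intervals come from the call counts, and a count of 0 was taken to allow 3 counts. No test was run, since each cell type has 1 call set. The scripts were tested on simulated calls. Members and gene lists were chosen with earlier results of these data known. Named genes were every member, with the 3 highest scores, the 3 longest cis calls, calls joining members and baited partners of each; others were chosen after their values were seen. Alternatives tried were a score of at least 10, pairs counted once, the browser lists, other distances, bait definitions, gene lists and Hi-C thresholds, and, added after seeing the data, nominal bin borders, leaving out Foxa1 and Foxa2, counting Tcfap2a, and other windows.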

Additional observations from a re-analysis of the deposited data

How the results depend on the processing

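Requiring a score of at least 10 left 36 mESC calls with a forkhead gene, 10 on chromosome 13 and 2 on chromosome 8, and 6 in GM12878, with a bait-to-bait share of 61.1% and a Hi-C overlap of 48.4%. Counting each fragment pair once, or using the browser list, gave a bait-to-bait share of 29.3%. Over all mESC calls counted in the same way, 29320 of 94150 distinct pairs were between baits, and the 36.3% above counts calls. Taking every listed Hi-C bin pair gave an overlap of 47.9%, and nominal bin borders, added after seeing the data, 53.4%. The backgrounds above were not taken at a score of at least 10 or over every listed bin pair. Leaving out Foxa1 and Foxa2, also added then, gave a median distance of 263 kb and 0% of baited partners on the developmental list. The other 28 recomputed values stayed within 1.5 times the count or inside the main interval. No paired analysis was possible because each cell type has 1 call set made from its replicates together. Contacts of 3 to 5 reads, which include all those beyond 1.1 Mb, are limited by counting error.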
